A study of Mus musculus with 8 samples.

Results

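Genes whose mRNA was recovered most strongly with the germ cell protein DAZL in embryonic mouse gonads are described here probe by probe. They are Rnf138, Eif1b, Senp8, Ttc33, Paqr9 and Sertad3, and they were chosen because the signal of their leading probe was among the largest in the precipitate relative to the starting lysate. All probes that carry 1 of these 6 gene names were taken, which gave 10 of 41174 probes and 6 of 27845 gene names on the array. Because the genes were chosen on this difference, it is given for them as a description with no test, and so is its contrast between the sexes.

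RNA immunoprecipitation (RIP) recovers a protein from a lysate with an antibody, and the RNA that comes with the protein is measured beside the RNA of the lysate (input). Gonads of E14.5 embryos of the strain MCH were lysed in lots of 50, from XX or from XY embryos, and 5% of the lysate was kept as input. The rest was precipitated with an anti-DAZL antibody (IP), and Cy3-labelled RNA was made, with 50 ng of RNA from each input and 1 ng from each IP. There were 4 groups of 2 arrays, XX input, XX IP, XY input and XY IP, and no group carried a mutation, a transgene or a drug treatment. No IP with a control antibody was used here, so RNA that binds to beads or antibody without DAZL cannot be told apart from RNA bound to DAZL. The labels do not say whether the 2 arrays of a group came from separate lots, so p-values measure only the spread between these arrays, which may be technical. All XX arrays lay on 1 slide and all XY arrays on another, and sex and slide cannot be told apart, whereas IP and input were compared within a slide.

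DAZL is an RNA-binding protein of germ cells with an RNA recognition motif. It is known to bind uridine-rich stretches in the 3′ untranslated regions of mRNAs and to promote their translation, and mice that lack it are infertile. At this stage XX germ cells enter meiosis and XY germ cells stop dividing. The 6 genes have unlike products. RNF138 is an E3 ubiquitin ligase that acts at DNA double-strand breaks. EIF1B is a close relative of EIF1, the factor with which the scanning ribosome selects a start codon. SENP8 is a protease that releases the ubiquitin-like protein NEDD8 from its substrates. TTC33 carries tetratricopeptide repeats, which mediate contacts between proteins. PAQR9 is a membrane protein of the progestin and adipoQ receptor family. SERTAD3 is a nuclear protein with a SERTA domain that acts in the control of transcription.

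Signals are given as log2 values after subtraction of the array's 75th percentile, so that 1 unit is a doubling and 0 is the level of that percentile. The rise of a probe is the mean of its IP arrays minus the mean of its input arrays of the same sex. Input arrays had 16713 to 20391 probes well above background and IP arrays 6068 to 9468. The 75th percentile signal was 77.4 to 172.8 scanner units for inputs against 6.82 to 13.1 for IPs. The lowest signal well above background lay at 0.03 to 1.02 on the IPs and at -3.59 to -2.34 on the inputs. The percentile was thus below the detected signals on every IP but not on the inputs. Folds given below hold for this scaling. The largest rise of the 10 probes was 5.90 in XX and 6.27 in XY, against 3.90 and 4.41 when arrays were scaled to the 50th percentile. All 10 probes of the 6 genes were well above background on all 8 arrays, and none was saturated. Of 18265 probes tested, 2567 (14.1%) in XX and 1863 (10.2%) in XY were higher in the IP at an adjusted p under 0.05 and at least 4-fold, while 1810 (9.91%) and 1403 (7.68%) were lower. This split depended on the scaling, since with the 50th percentile 189 probes were higher and 8646 lower in XX, and 219 higher and 8378 lower in XY. Of the 10 probes, 9 in XX and 10 in XY rose at least 4-fold, given with no test, and on all 10 both IP arrays lay above both input arrays in each sex. Over all tested probes 40.2% in XX and 35.4% in XY were separated in this way, and 43.1% of the 4206 probes above background on all 8 arrays were separated in both sexes. Nothing is read from these counts, since the choice of the genes used the same arrays.

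The gonads were checked against markers. Of 7 germ cell genes, all had a tested probe, and the median difference of IP and input over their 8 tested probes was 2.04 in XX and 1.92 in XY, beside 0.09 and -0.03 over all tested probes. Dazl itself was higher in the IP on both of its probes, by 3.09 in XX and 2.93 in XY on A_51_P246060 and by 2.69 and 2.06 on A_52_P271166 (log2 scale). The germ cell genes were not uniform, since Mael, above background on all 8 arrays, had -0.59 in XX and -0.92 in XY. Dnd1 and Pou5f1 were not well above background on either XX IP, and in XY they had 0.54 and 0.06, the latter with 1 of the 2 IPs above background. Among the inputs, a probe of the XX-specific transcript Xist was well above background on both XX arrays and on no XY array, and the Y-linked Eif2s3y on both XY arrays and on no XX array, as the sex labels state. RNA of other gonadal cells was also measured in the inputs. Fst and Wnt4 (ovarian supporting cells) had means of 2.98 and 1.71 in the XX input, Dhh (Sertoli cells) and Hsd3b1 (Leydig cells) 4.55 and 5.28 in the XY input, and Kdr (endothelium) 2.28 and 1.07 in the XX and XY inputs, all well above background on both of these arrays, whereas Foxl2 and Pecam1 were not in any group. In a whole gonad, fewer cells of a type and less RNA per cell cannot be told apart.

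**Figure D1:**
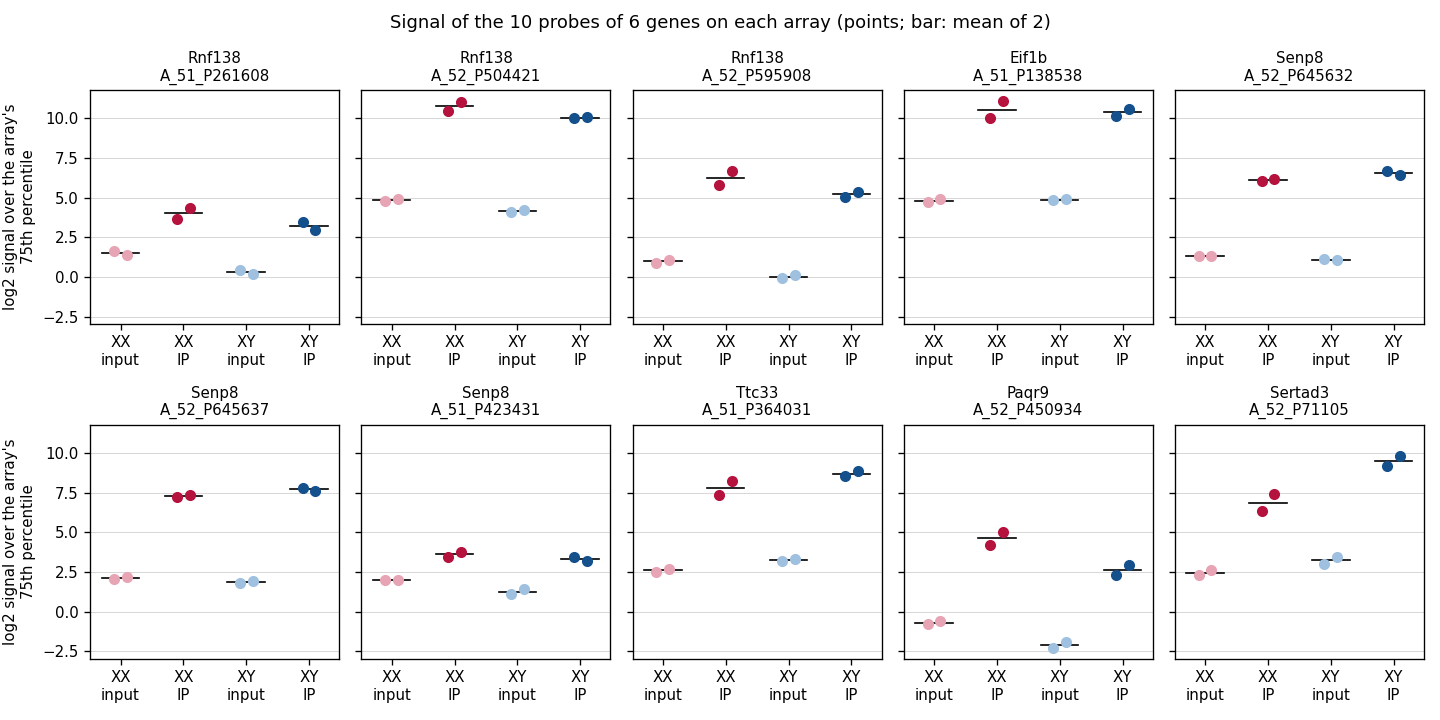
Log2 signal relative to the array's 75th percentile (y axis) for the 10 probes of the 6 genes, 1 panel a probe, by group (x axis). Each point is 1 array and each bar the mean of 2 arrays; in every panel both IP points lie above both input points of the same sex, by the least in the Senp8 probe A_51_P423431.

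Rnf138 had the largest rise in XX among probes above background on the 4 XX arrays. Its probe A_52_P504421 (mm8 chr18:21170216-21170275, plus strand) gave 4.78 and 4.91 for XX input against 10.48 and 11.01 for XX IP. The XY values were 4.09 and 4.21 for input against 9.98 and 10.09 for IP. The 4 IP arrays lay more than 5 log2 units above the 4 inputs, and the rise was 5.90 in XX (59.8-fold) and 5.89 in XY (59.2-fold), a difference of 0.02 between the sexes. A neighbouring probe, A_52_P595908 (chr18:21171047-21171106), lies 771 bases of genome farther in the direction of transcription. It gave 0.90 and 1.07 for XX input against 5.77 and 6.65 for XX IP, and -0.04 and 0.09 for XY input against 5.05 and 5.34 for XY IP. Its rise was 5.22 in XX and 5.17 in XY, so the order of the groups was the same on both probes, XY input below XX input and XY IP below XX IP, with no overlap between neighbours.

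The remaining Rnf138 probe, A_51_P261608, behaved differently. It is placed at chr18:21151857-21153676, 16539 bases upstream of A_52_P504421, and its coordinates span 1820 bases where 85.4% of probes span 60. It gave 1.64 and 1.40 for XX input against 3.64 and 4.37 for XX IP, and 0.41 and 0.18 for XY input against 3.44 and 2.94 for XY IP. The rise was 2.48 in XX (5.60-fold) and 2.89 in XY (7.44-fold), which was 3.42 and 2.99 log2 units less than on A_52_P504421.

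Senp8 showed the same kind of difference along the gene. The probes A_52_P645637 (mm8 chr9:59532294-59532353) and A_52_P645632 (chr9:59532269-59532328) share 35 bases, and Senp8 is read on the minus strand, so the probe A_51_P423431 (chr9:59534700-59534759), 2346 bases away, is the upstream one. A_52_P645637 gave 2.05 and 2.16 for XX input against 7.23 and 7.34 for XX IP, and 1.82 and 1.94 for XY input against 7.80 and 7.60 for XY IP. The 2 arrays of each group lay close together, the XY IPs were the highest and the XY inputs the lowest, and the rise was 5.18 in XX (36.4-fold) and 5.82 in XY (56.4-fold). The overlapping probe read 1.29 and 1.29, 6.07 and 6.16, 1.10 and 1.07, and 6.66 and 6.40 in the same order of groups, with rises of 4.83 and 5.45. These 2 probes share sequence and are not independent measurements.

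The upstream Senp8 probe gave 2.01 and 2.00 for XX input against 3.45 and 3.76 for XX IP, and 1.11 and 1.43 for XY input against 3.47 and 3.17 for XY IP. The XX and XY IPs overlapped. Its rise was 1.60 in XX (3.03-fold) and 2.05 in XY (4.13-fold), which was 3.58 and 3.77 less than on A_52_P645637, and in XX it lay below the 4-fold limit and changed direction, to -0.41, when arrays were scaled to the 50th percentile and, to -0.08, after another background correction (normexp). In XY the same settings gave 0.18 and 0.24, but the normexp fit failed on XY input replicate 1 and XY IP replicate 2. With outlying local backgrounds replaced, the lowest XY rise of the 10 probes was 0.31.

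**Figure D2:**
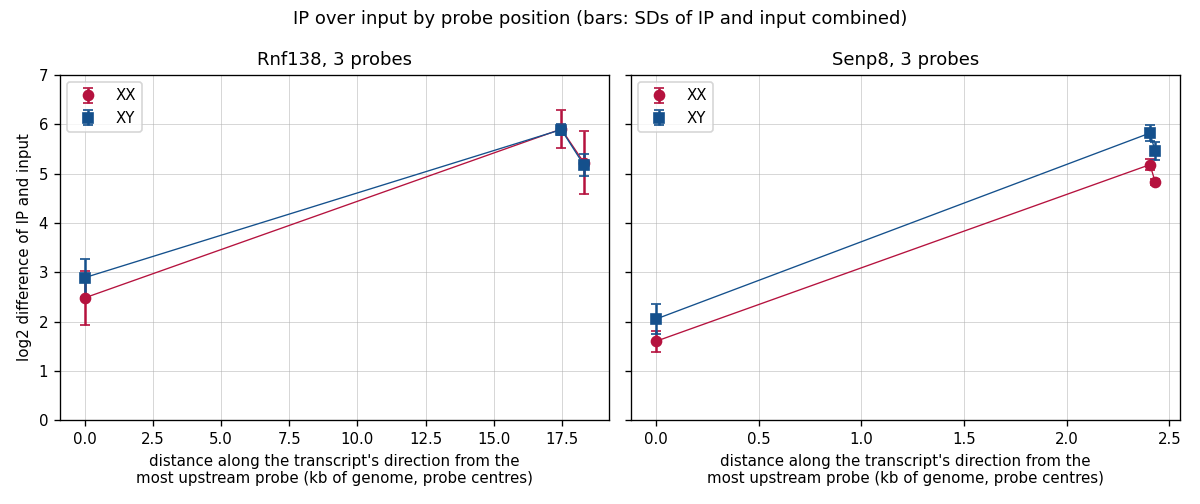
Log2 difference of IP and input (y axis) against the distance of the probe centre from the most upstream probe, in kb of genome in the direction of transcription (x axis), for Rnf138 (left) and Senp8 (right). Circles are XX and squares XY, and bars give the SDs of the 2 IP and 2 input arrays combined; in both genes and both sexes the upstream probe has the smallest difference, 2.48 and 2.89 for Rnf138 and 1.60 and 2.05 for Senp8.

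Between the outermost probes, the downstream probe had the larger rise by 2.74 in XX and 2.27 in XY for Rnf138, and by 3.22 in XX and 3.40 in XY for Senp8. For comparison, 435 other genes had at least 2 non-overlapping probes above background on all 8 arrays, a set taken after the values of the 6 genes were seen. In these the downstream probe was the higher in 70.6% of genes in XX and 69.0% in XY, with a median difference of 0.24 in each sex and the 10th and 90th percentiles at -0.62 and 1.64 in XX and at -0.85 and 1.52 in XY. Both genes lay above the 90th percentile in both sexes. In the 152 genes whose probes were at least 2000 bases apart the 10th and 90th percentiles were -1.74 and 1.70 in XX and -1.58 and 1.62 in XY, and in the 15 with a rise of at least 4 log2 units on 1 probe in both sexes they were -1.85 and 1.64 and -1.95 and 1.70. Among these 15, Ing2 had 2.95 and 2.92, more than Rnf138, and Fusip1 had -3.30 and -4.03, as large in the other direction, so differences of this size were not particular to the genes described here. Rnf138 and Senp8 were chosen on their highest probe, which widens such a difference, and the other genes were not, except those 15. Which exon or untranslated region each probe lies in was not determined, and the part that the position of a probe within the mRNA has in its signal was not tested.

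Eif1b was measured by 1 probe, A_51_P138538 (mm8 chr9:120343753-120343812, plus strand). It gave 4.71 and 4.88 for XX input against 9.98 and 11.08 for XX IP, and 4.83 and 4.89 for XY input against 10.12 and 10.60 for XY IP. The inputs of the sexes overlapped and so did the IPs, and the rise was 5.74 in XX (53.3-fold) and 5.50 in XY (45.2-fold). The XX IPs differed by more than 1 log2 unit, the widest spread among the leading probes together with Sertad3.

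Ttc33, with 1 probe (A_51_P364031, mm8 chr15:5165275-5165334, plus strand), gave 2.52 and 2.71 for XX input against 7.38 and 8.24 for XX IP. The XY values were 3.22 and 3.29 for input against 8.57 and 8.84 for IP. Both inputs and both IPs of XY were above those of XX, and the rise was 5.20 in XX (36.6-fold) and 5.45 in XY (43.7-fold).

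Paqr9 had the opposite order between the sexes. Its probe A_52_P450934 (mm8 chr9:95371338-95371397, plus strand) gave -0.77 and -0.59 for XX input against 4.23 and 5.02 for XX IP, and -2.28 and -1.88 for XY input against 2.31 and 2.93 for XY IP. All XX arrays were above the XY arrays of the same kind, by a mean of 1.40 in the input and 2.00 in the IP. The rise was 5.30 in XX (39.5-fold) and 4.70 in XY (26.0-fold), a difference of 0.60 between the sexes.

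Sertad3 differed most between the sexes. Its probe A_52_P71105 (mm8 chr7:27185942-27186001, plus strand) gave 2.31 and 2.63 for XX input against 6.33 and 7.40 for XX IP. The XY values were 3.01 and 3.45 for input against 9.19 and 9.80 for IP. The lowest XY IP was above the highest XX IP, the XY inputs were above the XX inputs, and the rise was 4.40 in XX (21.0-fold) and 6.27 in XY (77.2-fold). The rise was 1.87 larger in XY, the widest gap between the sexes among the 10 probes, whose other gaps ran from 0.63 larger in XY (Senp8, A_52_P645637) to 0.60 larger in XX (Paqr9).

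**Figure D3:**
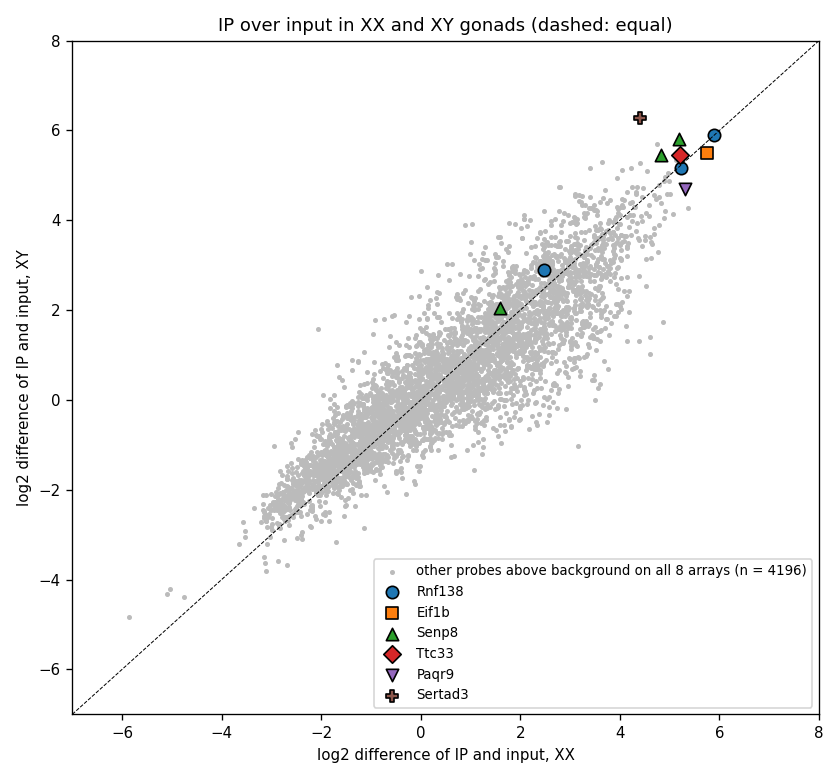
Log2 difference of IP and input in XX (x axis) and in XY (y axis) for 4206 probes above background on all 8 arrays; each grey point is 1 probe, the 10 probes of the 6 genes are marked by gene, and the dashed line marks equal differences. The probes of the 6 genes lie at the upper right end, Sertad3 lies above the line at 4.40 and 6.27, except that the upstream probes of Rnf138 and Senp8 lie within the grey points.

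The genes held different places in the order of rises. Of 5567 probes above background on the 4 XX arrays, Rnf138 (A_52_P504421) was first and Eif1b next, then followed Gm288 at 5.38, which is not among the 6, Paqr9, Rnf138 (A_52_P595908), Ttc33 and Senp8 (A_52_P645637) in seventh place at 5.18. The next probe was that of Chic2 at 5.12, a step of less than the spread between arrays, so the boundary of the set is not sharp. Sertad3 was only at place 65 in XX. Of 5481 such probes in XY, Krtap9-1 (7.22), Dixdc1 (7.02) and a transcript without a gene name (6.40) ranked above Sertad3 at place 4, Rnf138 at 5 and Senp8 at 6, and Zfp318 followed at 5.70. Eif1b was at place 9, Ttc33 at 11 and Paqr9 at 44, between Trim6 at 4.71 and Topbp1 at 4.66. The upstream probe of Rnf138 stood at place 1046 in XX and 521 in XY, and that of Senp8 at 1924 and 1027.

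Scaling to the 75th percentile sets arrays with a low overall signal on a level with bright ones, so the signals before scaling were also compared. For Rnf138 (A_52_P504421) they were 4740 and 2320 scanner units for XX input against 12800 and 25900 for XX IP, and 2020 and 1500 for XY input against 6910 and 14300 for XY IP. Both IPs exceeded both inputs in each sex, although they were made from 1 ng and the inputs from 50 ng of RNA. The unscaled ratio of IP to input was 5.49 in XX and 5.71 in XY. For Eif1b it was 4.90 and 4.36, for Senp8 (A_52_P645637) 3.34 and 5.45, for Ttc33 3.36 and 4.22, and for Paqr9 3.63 and 2.51.

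Before scaling, 7 of the 10 probes in XX and 8 in XY had both IPs above both inputs. Over all 18265 tested probes this held for 0.821% in XX and 0.783% in XY, and the median unscaled log2 difference of IP and input was -3.36 and -3.41. The same arrays chose the genes, so the contrast with all probes is a description. Sertad3 was separated in XY, with 952 and 883 scanner units on the inputs and 3980 and 11700 on the IPs, but not in XX, where an input read 858 and an IP 721. The upstream probe of Rnf138 had unscaled ratios of 0.514 in XX and 0.718 in XY, and that of Senp8 had 0.279 and 0.399, and on the Senp8 probe both IPs lay below both inputs in each sex, while on the Rnf138 probe the IPs and inputs overlapped.

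**Figure D4:**
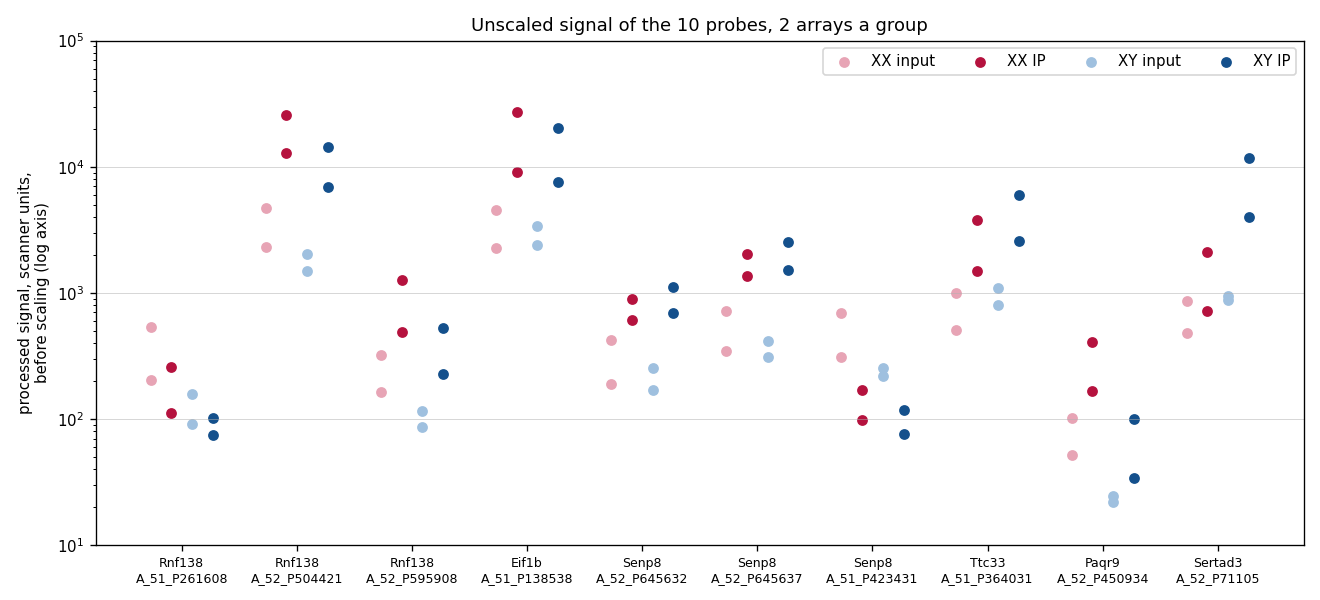
Processed signal before scaling, in scanner units on a log axis (y axis), for the 10 probes (x axis); each point is 1 array, 2 a group, in the colours of the legend. The IP points lie above the input points of the same sex for 7 probes in XX and 8 in XY, and for the upstream probes of Rnf138 (A_51_P261608) and Senp8 (A_51_P423431) they do not.

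The levels of the 6 genes in the starting RNA of the sexes were not the values they were chosen on, although the input arrays entered that choice, and they were tested. In the fit of all 8 arrays, none of the 10 probes differed between XX and XY input at an adjusted p under 0.05 (limma, Benjamini-Hochberg over 18265 probes). Of all probes 5.87% were higher in XX and 6.1% higher in XY. This fit pools the spread of all 8 arrays, so its p-values and SEs also carry the spread of the IP arrays. For Paqr9 the SDs were 0.13 and 0.28 in the XX and XY inputs against 0.56 and 0.44 in the IPs. With the 4 input arrays alone 7 of the 10 passed, beside 44.1% of all tested probes. At an unadjusted p under 0.05 there were 3, namely Paqr9 and the Rnf138 probes A_51_P261608 and A_52_P595908, beside 23.8% of all tested probes. Paqr9 was 1.40 ± 0.43 (SE) higher in the XX input with an adjusted p of 0.057, and the Rnf138 probes were 1.22 ± 0.42 (adjusted p = 0.085), 0.96 ± 0.42 (0.18) and, for A_52_P504421, 0.69 ± 0.39 (0.33) higher. Ttc33 and Sertad3 had lower means in the XX input, by -0.64 ± 0.42 (0.42) and -0.76 ± 0.46 (0.38), and Eif1b differed by -0.07 ± 0.45 (0.96). The Senp8 probes were 0.21, 0.22 and 0.74 higher, with adjusted p-values of 0.82, 0.81 and 0.29.

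Both arrays of 1 sex lay above both of the other for 9 of the 10 probes, 7 with XX higher and 2 (Ttc33 and Sertad3) with XY higher, and Eif1b overlapped. Over all tested probes 38% were separated in each direction, so most probes were separated one way or the other. The result for Paqr9 lay close to the threshold and changed with the setting. Its adjusted p was 0.035 without XX IP replicate 1, 0.039 without XX IP replicate 2, 0.031 without XY IP replicate 1 and 0.033 without XY IP replicate 2, and it ran from 0.005 to 0.82 over 19 alternatives, of which 9 fell under 0.05. The Rnf138 probe A_51_P261608 had an adjusted p of 0.046 without XX IP replicate 1, 0.045 without XY IP replicate 1 and 0.047 without XY IP replicate 2, in a range of 0.005 to 0.49. The summed scaled signal of the germ cell markers was 114 to 125 in the XX inputs and 202 to 236 in the XY inputs, with 1 of 8 tested probes higher in XX (Dazl, A_51_P246060, 1.54, adjusted p = 0.022; 1.22 with 0.067 on its other probe) and 4 higher in XY, while Ddx4 differed by -0.19 (adjusted p = 0.85). Its part in the differences between inputs was not tested.

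Genes related to the 6 by family or pathway were described by the number of probes past the limits and above background on both IP arrays, which 8.2% of all tested probes in XX and 6.05% in XY were in the direction of the IP. Of 110 tested probes of 67 related genes, 11 (10%) in XX and 8 (7.27%) in XY were higher in the IP, close to all probes. With the 50th percentile or normexp only 1 in XX and 0 in XY were, and with quantile normalization 9 and 8, so the rises named below depend on the scaling and background correction. Past the same limits in the other direction were 2 in XX and 3 in XY, beside 9.91% and 7.68% of all tested probes. Of these related probes Eif1 in XX alone was above background on both IP arrays. Probes of Denr, Eif1a, Appbp1, Cul4b, Zfp313 and Ttc14 were higher in both sexes.

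Among the E3 ligases of the RING-C2HC family of Rnf138, the probe A_51_P259378 of Zfp313 (now Rnf114) gave 5.52 and 5.45 for XX input against 7.93 and 9.04 for XX IP. It rose by 3.00 in XX and 3.19 in XY, with adjusted p-values of 0.00044 and 0.00045. Its other probe, A_51_P177819, had 2.47 and 1.77, with 1 of the 2 IPs above background in each sex. This was 1 of 4 tested probes of the family. In the scanning factors related to Eif1b the members went different ways. Eif1, which has the same role as Eif1b, fell by 2.16 in XX (A_51_P283837, 6.76 and 6.92 on the inputs, 4.21 and 5.13 on the IPs, adjusted p = 0.0025), and in XY its difference was -1.87, short of 4-fold. Eif1a, which acts beside EIF1 on the scanning ribosome, rose by 2.80 and 2.35 on A_51_P277884, and A_52_P331911 had 1.09 and 1.59, not past the limits. Denr, a factor in ribosome recycling and reinitiation, rose by 2.17 and 2.46 on A_51_P499776, while another probe, A_52_P474765, differed by -0.26 and -0.41. Mcts2 fell by 2.69 in XY (A_51_P329356), where 1 of the 2 IPs was above background, and had -1.80 in XX.

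The NEDD8 pathway of Senp8 had 35 tested probes, with 5 higher in XX and 3 in XY and medians of 0.76 and 0.32. Appbp1 (now Nae1), a subunit of the enzyme that activates NEDD8, rose by 2.79 in XX and 2.68 in XY. Dcun1d3, which promotes the attachment of NEDD8 to cullins, rose by 4.86 in XX (29.0-fold, place 19 among the 5567 probes above background on the 4 XX arrays), from 2.83 and 3.08 on the inputs to 7.42 and 8.21 on the IPs, and in XY it had 1.73, under the 4-fold limit. The cullin Cul4b rose 5.24-fold and 8.59-fold on A_52_P213181, but A_51_P120948 had -1.56 and -1.13. Cul4a rose by 2.62 in XY and had 1.79 in XX, Cul1 rose by 3.52 in XX on A_52_P149250, while A_51_P335509 had 1.71 and A_52_P664699 was not well above background on either XX IP. The NEDD8-conjugating enzyme Ube2f rose by 3.69 in XX on A_52_P362611 and had 2.13 in XY (adjusted p = 0.0065), where 1 of the 2 IPs was above background, while in XX its other tested probes were well above background on 1 (A_51_P430445, -1.07) and none of the 2 IPs. Nedd8 itself had -1.19 and -0.94, neither past the limits. The differences between XX and XY in these genes were not tested.

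The proteases named like Senp8, which act on SUMO, had 14 tested probes, of which 1 was past the limits, Senp2 (A_52_P5765) with a rise of 2.06 in XX and a value of -0.58 in XY, while its other tested probes had 1.36 and 1.06 in XX, each with 1 of the 2 IPs above background. Of 29 probes of Ttc genes, 2 were higher in XX and 1 in XY; Ttc14 rose by 2.54 and 2.77 (A_51_P518470), while A_51_P101719 was not well above background on any IP, and Ttc19 rose by 2.44 in XX on A_51_P107808, while A_52_P667215 had 1.14. Ttc27 was lower in the XY IP (A_52_P528634, adjusted p = 0.006), where it was not well above background, so its signal is given as at least 1.23-fold lower against the lowest signals that were. Of 11 probes of the receptor family of Paqr9 none was higher and above background in either sex, and the lower ones were bounds of the same kind, at least 1.68-fold for the adiponectin receptor Adipor1 in XX (A_51_P485240, adjusted p = 0.0013) and at least 1.75-fold for Mmd2 in XY (A_51_P257885, adjusted p = 0.001). Of 6 probes of SERTA domain genes, Sertad4 rose by 3.27 in XY (A_52_P285024), from 1.02 and 1.05 to 4.05 and 4.57. Like Sertad3 it had the higher mean in the XY input, by 2.01 on the log2 scale (XX minus XY -2.01, adjusted p = 0.0076). In XX the rise of Sertad4 was 1.67, with 1 of the 2 IPs above background.

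**Figure D5:**
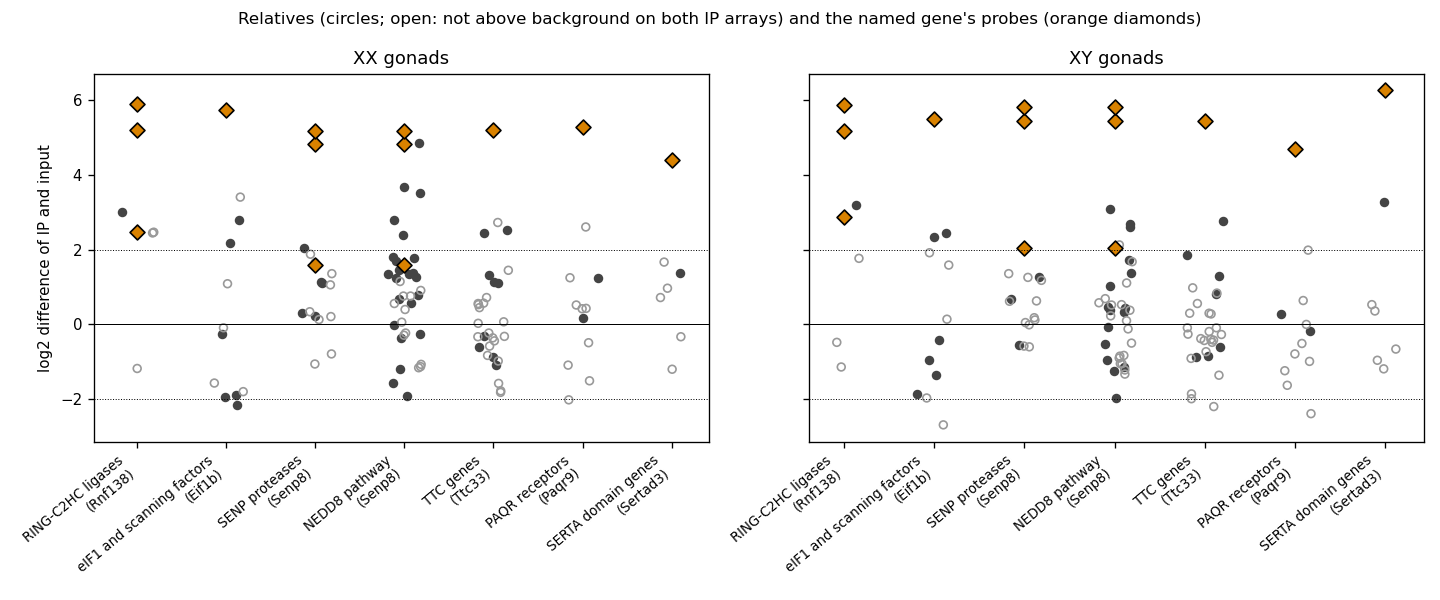
Log2 difference of IP and input (y axis) for tested probes of genes related to the 6 (circles) and for the probes of the gene named in brackets (orange diamonds), in XX (left) and XY (right); open circles were not above background on both IP arrays, and dotted lines mark 4-fold. Most circles lie between the dotted lines, and the highest filled one is Dcun1d3 at 4.86 in XX.

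Other genes shared the pattern over the 8 arrays. For each leading probe, the 2 genes with the smallest root mean square difference of centred log2 signal were sought among 3068 probes. These were the probes of other genes above background on all 8 arrays whose gene name was a RefSeq symbol. It is a description in which all points share the arrays. Chic2 was among the nearest for Eif1b (0.24), Senp8 (0.40) and Rnf138 (0.54), with rises of its own of 5.12 in XX and 5.34 in XY. Alkbh5, an RNA demethylase, was nearest to Rnf138 (0.50), Dck, a nucleoside kinase, lay near Eif1b (0.42), and Zfp318 was nearest to Senp8 (0.25). D030056L22Rik (0.25) and Sdad1 (0.29) lay nearest to Ttc33. Elavl2, an RNA-binding protein, was nearest to Paqr9 (0.36), with a rise of 4.78 in XX and 4.51 in XY and an input difference of 1.15 toward XX, followed by H2-Q1 (0.44). Pias2, a SUMO ligase (0.47), and Cks2, a subunit of cyclin-dependent kinases (0.57), were nearest to Sertad3, and both had the larger rise in XY, 4.05 against 5.12 for Pias2 and 4.23 against 4.75 for Cks2.

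Among the 6 genes themselves, Eif1b and Senp8 were the closest pair (0.38) and Paqr9 and Sertad3 the most distant (1.82). Paqr9 and all Rnf138 probes had the higher input and IP means in XX, and Ttc33 and Sertad3 had the higher ones in XY.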

How the data were processed

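Input and precipitated RNA of 8 samples was hybridized to 1-colour Agilent whole mouse genome arrays. The deposited scanner files hold processed signal intensity, with background already subtracted and arrays not scaled to each other (Feature Extraction, version 9.5.3.1 in the file headers). The mean intensity and local background were also deposited. The authors' deposited table holds log2 values made by setting values under 1 to 1 and scaling to the 75th percentile; every array had a 75th percentile of 5.05 and medians of 1.62 to 4.05, the constant is unstated, and the Pearson correlation with the values used here was at least 0.99998. Positions are on mm8 per the file headers; the strand follows the order of the coordinates, which matched RefSeq for 98.7% of 19883 probes.

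Of 43379 non-control spots an array (41174 probes), spots marked as outliers were dropped, 1 was used as the lowest signal, spots of a probe were averaged on the log2 scale, and the 75th percentile of the array was subtracted. Left out were 73 probes with outliers on every spot of an array. The 18265 probes that exceeded background clearly on both arrays of any group were tested with limma 3.58.1 in R 4.3.3, with 1 mean per group over 8 arrays (residual df 4, prior df 7.83), two-sided, with Benjamini-Hochberg adjustment, and the IP calls also needed 4-fold. The study states the 4-fold limit with a p limit and names no test; here p was adjusted. The procedure was tested on simulated data, where some of the changed probes were not called. The depth is given as probes above background; the number of arrays limits the precision.

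The members, gene lists and tests were chosen with earlier results of these data known. The genes named are the 6 members, related genes that were called, genes next in rank, the 2 genes most like each leading probe (that with the largest smaller rise of XX and XY) and cell type markers; Ing2, Fusip1, Nedd8 and probes of Eif1a, Denr, Cul1, Cul4b, Ube2f, Zfp313, Senp2, Ttc14 and Ttc19 that were not called were added after their values were seen. Alternatives covered scaling, background correction, filter, floor, the deposited table, the samples fitted, a replicate block and leaving out each array. Probe sequences were not used here.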

Additional observations from a re-analysis of the deposited data

How the results depend on the processing

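The higher level of the 10 probes in the IP kept its direction in both sexes under every alternative run, except for the Senp8 probe A_51_P423431 in XX, at -0.41 with the 50th percentile and -0.08 with normexp, with or without outlying local backgrounds replaced. Over the 10 probes the rise had a median of 5.19 (XX) and 5.45 (XY), against 3.18 and 3.59 with the 50th percentile (which moved the median of all probes to -1.92 and -1.90), and 2.74 and 3.13 with normexp. Probes of the 10 at 4-fold or more were 9 in XX and 10 in XY, against 8 and 8 with the 50th percentile and 8 and 7 with normexp. The normexp fit failed on XY input replicate 1 and XY IP replicate 2, so a repeat with outlying backgrounds replaced was added after seeing the data. For the related genes all alternatives were applied after seeing the data.

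The counts of probes higher in the IP (2567 in XX, 1863 in XY), differing between inputs (2186) and, for related genes, higher in the IP (11 and 8) were 189, 219, 1055, 1 and 0 with the 50th percentile, 79, 62, 727, 1 and 0 with normexp, and 79, 79, 2821, 1 and 0 with backgrounds replaced. With quantile normalization they were 1480, 1241 and 1476 for the first 3, and with the 75th percentile of probes above background on all 8 arrays 1673, 1256 and 1875. Without a filter they were 23328, 22374 and 1179 of 41101 probes, with the median of all probes at 2.54 in XX and 2.38 in XY, and with only probes above background on all 8 arrays 1040, 842, 201, 7 and 7. With only the 4 arrays compared, 8063 probes differed between inputs. The causes were not tested. Under normexp the input difference of Eif1b became 0.64, of Ttc33 0.10 and of Sertad3 0.22, and with backgrounds replaced none of the 10 changed direction. With only the 4 input arrays 7 member probes passed, beside 44.1% of all tested probes, all but Eif1b and the 2 overlapping Senp8 probes.

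Leaving out 1 array gave 2514 to 3244 probes in XX, 1768 to 3451 in XY (3451 without XX input replicate 2), 1244 to 3108 between inputs (1415 and 1244 without XX input replicates 1 and 2, 1397 and 1357 without XY input replicates 1 and 2), and 10 to 12 and 8 to 10 related probes. In these runs the filter was applied anew, and a group left with 1 array needed only that array above background. The counts over all probes can thus come from a larger set of tested probes. Without XX input replicate 2 the median rise of tested probes was 0.39 in XX and 0.25 in XY, against 0.09 and -0.03. The difference of Eif1b between inputs ran from -0.15 to 0.02, the latter without XX input replicate 1.

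The replicate numbers were not taken to pair the samples, since the labels do not tie a number to a shared lot or day. Deviations of same-numbered arrays correlated at 0.28 between the inputs of the sexes, 0.44 between their IPs and 0.06 to 0.12 otherwise (0.52, 0.54 and 0.03 to 0.14 over probes above background on all 8 arrays). With a replicate block the counts were 2571, 1865 and 2725, and Paqr9 passed between inputs (adjusted p = 0.022), as it did with quantile normalization (0.042), with the 75th percentile of probes above background on all 8 arrays (0.016) and with only those probes (0.047). The slide as a block could not be fitted, since it coincides with sex.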
